A study of Bos taurus with 6 samples.

Results

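Antigen presentation by class I and class II molecules of the major histocompatibility complex (MHC) was described in intramuscular fat (IMF) of steers and bulls. The genes were chosen by name. They comprise the 9 rows of the gene table whose symbol starts with BOLA- or HLA-, the cattle and human prefixes of MHC chains, and 26 further genes of peptide processing, loading, regulation and costimulation. CANX and LGMN of the 26 were not found under these symbols and were not analysed here. This left 33 genes of the 25444 in the table, of which 16 belong to the class I pathway, 11 to the class II pathway, 3 to regulators of both and 3 to costimulation. All animals were male Chinese Qinchuan cattle, weaned at 3 months of age and slaughtered at 24 months, and the IMF was dissected from the sternomandibularis muscle. Steers had been castrated by surgery at 6 months, and bulls were left intact. Each group gave 1 mRNA library from pooled RNA. The design text of the series gives 6 animals behind each pool and the sample labels give 3. The study's methods state that all animals came from a single sire. Because RNA was pooled into 1 library per group, the libraries show nothing of the spread between animals.

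Class I molecules pair a polymorphic heavy chain with the light chain B2M and show peptides from the inside of a cell to CD8 T cells. The peptides are cut by the proteasome, pumped into the endoplasmic reticulum by the TAP transporter, trimmed there by ERAP aminopeptidases and fitted by a loading complex of chaperones. Almost every nucleated cell makes class I. Class II molecules are dimers of an alpha and a beta chain, made mainly by macrophages, dendritic cells and B cells, and show peptides from engulfed material to CD4 T cells. Their groove is held shut by the invariant chain CD74 until endosomal proteases cut it away and DM exchanges its last fragment for a peptide. In fat, resident macrophages and other leukocytes of the stroma are the best known carriers of class II.

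The libraries held 12677375 counts in steers against 9868415 in bulls, and at least 1 read was counted on 17752 genes. Counts were scaled by size factors of 1.04 and 0.959. Fold changes (FC) are given as log2(FC) of steers over bulls, with 0.5 counts added, and the intervals are 95% Clopper-Pearson intervals. They cover counting error only, and reads are not independent molecules. A gene was taken as past 2-fold when it had at least 10 counts over both libraries, an absolute log2(FC) over 1 and an interval that left out 0. With 1 library per group there is no replicate check, so every difference is one between these 2 pools. The 6 adipocyte markers were all counted in both, among them ADIPOQ with 4513 counts in steers against 6651 in bulls, and so were the 7 markers of skeletal muscle.

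Of the 33 genes, 20 were past 2-fold and lower in steers, 0 were past it and higher, and 13 were not past it. Over the 14540 genes with at least 10 counts, 10.2% were past 2-fold and lower in steers and 5.65% were past it and higher. Of the 33 genes, 28 had a log2(FC) below 0, compared with 49.1% of all genes tested. The median was -1.76 over the 33 genes and 0.01 over all genes tested, of which 15.9% were past 2-fold in either direction. When libraries were scaled by total counts, the median of all genes moved to -0.23 and 13.9% were lower and 3.86% higher, so that higher genes made up 21.7% of those past 2-fold compared with 35.6%. All 33 genes reached the minimum of counts. The genes took 0.363% of all counts in steers and 1.05% in bulls. In bulk tissue, fewer cells of a type and less RNA per cell cannot be told apart.

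**Figure D1:**
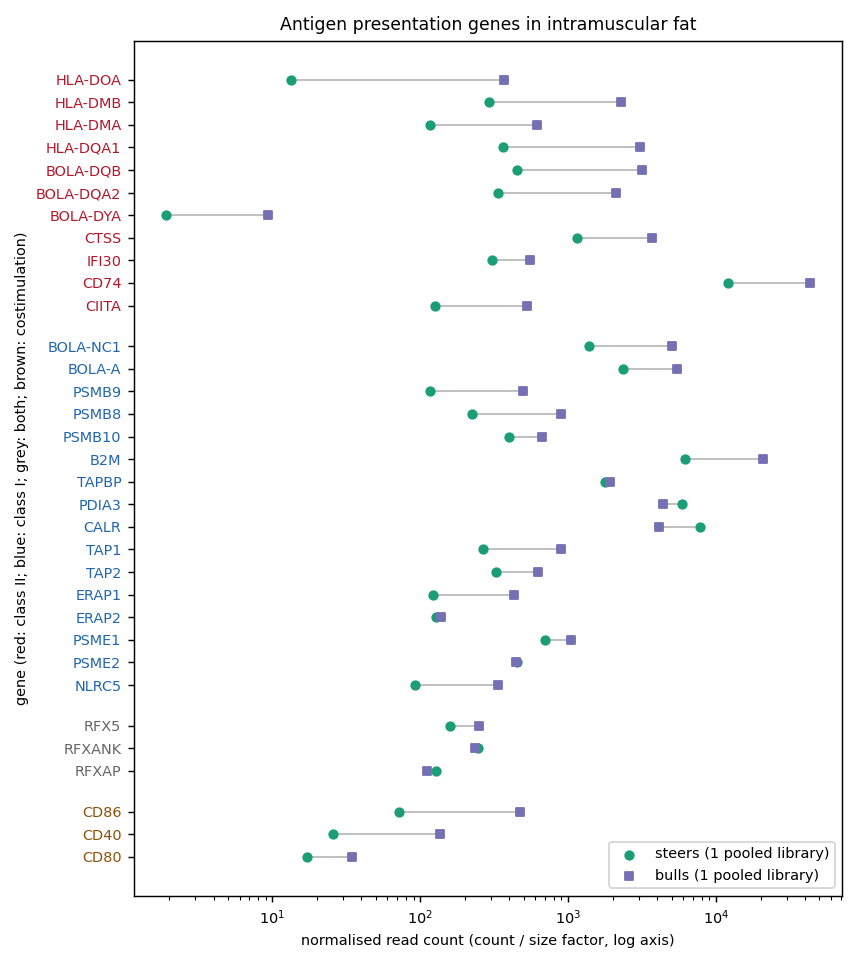
Normalised read counts (count divided by size factor, log axis) of the 33 genes in the pooled library of steers (circles) and of bulls (squares), grouped by pathway. The circle lies to the left of the square for all 11 class II genes, while CALR and PDIA3 of class I are the genes with a visible gap in the other direction.

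In the class II pathway, 10 of 11 genes were past 2-fold and lower in steers, and the median log2(FC) was -2.41. DQ molecules are class II dimers that show peptides at the cell surface. HLA-DQA1, a row for a DQ alpha chain that carries the human symbol, had 381 counts in steers against 2936 in bulls. Its log2(FC) was -3.07 (-3.23 to -2.91). BOLA-DQA2, a further DQ alpha chain, had 348 and 2025 counts and was lower by 6.33-fold in steers. The beta chain BOLA-DQB had 469 and 3031 counts, with a log2(FC) of -2.81 (-2.96 to -2.67). These DQ rows were thus lower by 6.33-fold to 8.38-fold, and the interval of BOLA-DQA2, -2.83 to -2.50, did not overlap that of HLA-DQA1. BLA-DQB, a DQ row without the prefix that is described below, was lower by 5.08-fold. How reads that match several DQ rows were counted is not stated, so reads may have been split between them. BOLA-DYA, an alpha chain of the DY pair that is found in ruminants, was near the limit of detection. It had 2 counts in steers against 9 in bulls, and its counting interval on the log2 scale was wide, from -5.54 to -0.02. DRA and DRB rows were not among the rows with the prefix and were not analysed here.

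DM and DO act inside the cell. DM is the catalyst that frees the groove of the CD74 fragment, and DO binds DM and holds it back. HLA-DMB, the beta chain of DM, had 305 counts in steers against 2177 in bulls, a log2(FC) of -2.96 (-3.14 to -2.78). HLA-DMA, the alpha chain, had 121 and 591 counts and a log2(FC) of -2.41 (-2.70 to -2.13). HLA-DOA, the alpha chain of DO, had 14 and 353 counts. This was the largest difference of the 33 genes, 26.5-fold lower in steers with a log2(FC) of -4.73 (-5.66 to -4.01), and its interval did not overlap that of any other gene but BOLA-DYA. Within a library the ratio of HLA-DOA to HLA-DMB counts does not depend on the scaling. It was 0.0459 in steers and 0.162 in bulls, a difference of -1.82 on the log2 scale (-2.61 to -1.03). The mRNA of HLA-DOA thus differed by more than that of HLA-DMB between the pools. This pair was chosen after its values had been seen. No row for DOB, the beta chain of DO, was found, so DO is described by its alpha chain only.

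CD74 is the chaperone that escorts class II chains to the endosome. It had 12658 counts in steers against 41520 in bulls, or 0.0998% and 0.421% of all counts. Its log2(FC) was -1.84 (-1.86 to -1.81), which is a smaller difference than that of the DQ and DM chains. Per count of CD74, steers had 0.0301 counts of HLA-DQA1 and bulls 0.0707. For HLA-DMB these ratios were 0.0241 and 0.0524. Each of the 6 DQ, DM and DO chains other than BOLA-DYA was thus lower in steers relative to CD74 as well, the least so HLA-DMA at -0.57 (-0.86 to -0.29) and the most HLA-DOA at -2.94 (-3.71 to -2.17). These ratios to CD74 were also chosen after the values had been seen.

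CIITA is the master coactivator of class II genes, which binds no DNA itself. It had 132 counts in steers against 503 in bulls, a log2(FC) of -2.05 (-2.34 to -1.77). Relative to CD74 it differed by -0.22, with an interval of -0.49 to 0.06 that holds 0. The cysteine protease CTSS, which makes the last cuts in CD74, had 1194 and 3522 counts and a log2(FC) of -1.68 (-1.78 to -1.59). IFI30, a reductase that opens disulfide bonds of engulfed proteins, was the gene of the class II pathway that was not past 2-fold. It had 321 and 533 counts and a log2(FC) of -0.85 (-1.06 to -0.65). Both processing enzymes thus differed less than the DQ, DM and DO chains, BOLA-DYA aside.

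**Figure D2:**
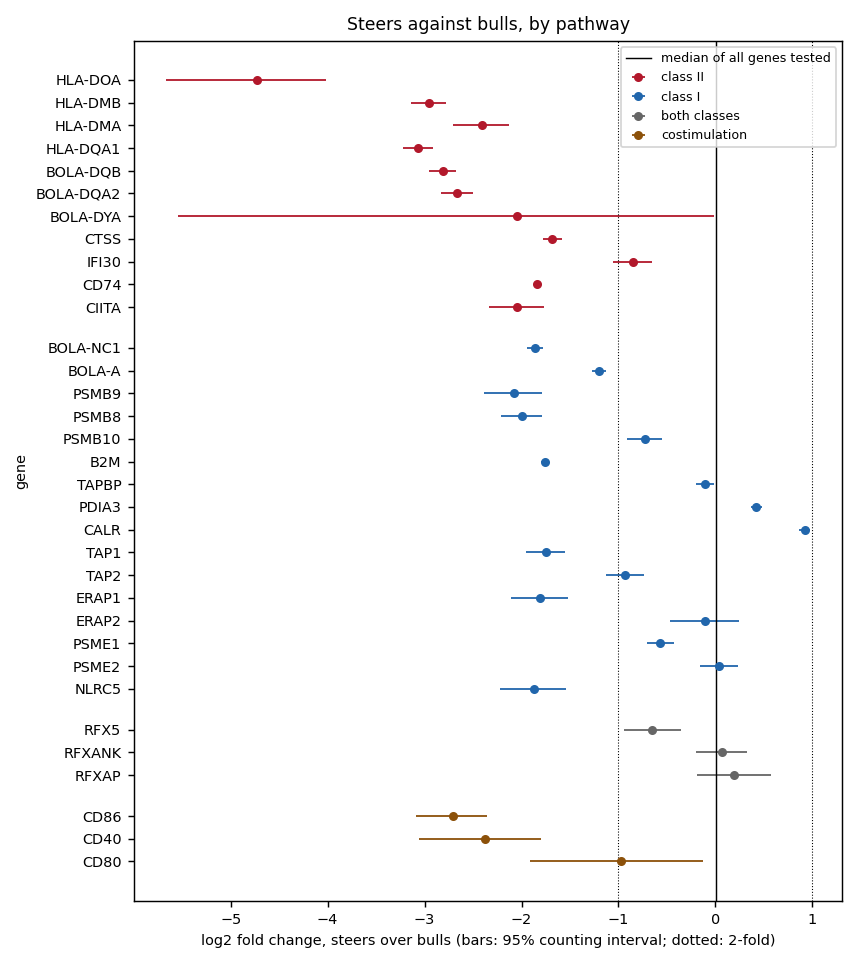
Log2(FC) of each gene, steers over bulls, with its 95% counting interval as a bar, grouped and coloured by pathway. The solid line is the median of all genes tested at 0.01, the dotted lines mark 2-fold, and 10 of 11 class II genes, 8 of 16 class I genes, 0 of 3 shared regulators and 2 of 3 costimulation genes lie past 2-fold on the lower side.

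In the class I pathway, 8 of 16 genes were past 2-fold and lower in steers, 0 were higher, and the median log2(FC) was -1.07. The heavy chain BOLA-NC1, a non-classical class I gene, had 1448 counts in steers against 4832 in bulls. Its log2(FC) was -1.86 (-1.95 to -1.78). The heavy chain BOLA-A had 2456 and 5197 counts and was lower by less, with a log2(FC) of -1.20 (-1.27 to -1.13). B2M, the light chain of all class I molecules, had 6419 and 19945 counts and a log2(FC) of -1.76 (-1.80 to -1.72). The ratio of BOLA-A to B2M counts was 0.383 in steers and 0.261 in bulls, and that of BOLA-NC1 to B2M was 0.226 and 0.242, both ratios chosen after the values had been seen. Class I genes of cattle are near-identical copies, and how reads that match several of them were counted is not stated, so reads may have been split between these rows.

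Other rows of the table carry MHC names without the prefix and were not counted among the 33. The row BOLA, another class I gene, had 7403 counts in steers against 40199 in bulls, a log2(FC) of -2.56. JSP.1, a class I gene with the RefSeq synonym BoLA, had 6575 and 18134 counts and a log2(FC) of -1.59. For class II, BLA-DQB had 1380 and 6449 counts, LOC100848815, for which RefSeq gives the synonym BoLA-DQA1, had 1246 and 7234, and DSB, taken as a class II beta chain from its symbol, had 318 and 1515. A further 3 rows, LOC614091, LOC788634 and LOC617979, are known here as class I chains only from a list of changed genes of the study. That they differed between the libraries was thus fixed by that choice. Their counts were 607, 19 and 1 in steers against 8033, 258 and 71 in bulls. The 5 rows identified by name alone, BOLA, JSP.1, BLA-DQB, LOC100848815 and DSB, were lower in steers, by log2(FC) values from -1.59 to -2.66.

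Cells that respond to interferon exchange the catalytic subunits PSMB5, PSMB6 and PSMB7 of the standard proteasome for PSMB8, PSMB9 and PSMB10, which form the immunoproteasome. PSMB8 had 235 counts in steers against 862 in bulls, a log2(FC) of -1.99 (-2.21 to -1.79). PSMB9 had 121 and 471 counts and a log2(FC) of -2.08 (-2.38 to -1.79). PSMB10, with 416 and 633 counts, was at -0.73 (-0.91 to -0.55) and was not past 2-fold. The standard subunits were each higher in steers and not past 2-fold, PSMB5 at 0.33, PSMB6 at 0.48 and PSMB7 at 0.38. The share of each pair's counts that fell on the immunoproteasome subunit was therefore lower in steers for all 3 pairs. It was 22.9% (exact binomial interval 20.3 to 25.6) in steers and 59.8% (57.2 to 62.4) in bulls for PSMB8 with PSMB5. For PSMB9 with PSMB6 it was 9.46% (7.91 to 11.2) and 38.2% (35.5 to 41.0). For PSMB10 with PSMB7 it was 30.0% (27.6 to 32.5) and 48.0% (45.2 to 50.7). PSMB8 and PSMB9 kept nearly the same ratio to each other, 1.94 in steers against 1.83 in bulls, with a log2 difference of 0.09 (-0.27 to 0.44), a pair likewise chosen after its values had been seen. In the RefSeq annotation PSMB10 overlaps LCAT, which had 1926 and 1471 counts, and without strand their reads cannot be told apart where they overlap.

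**Figure D3:**
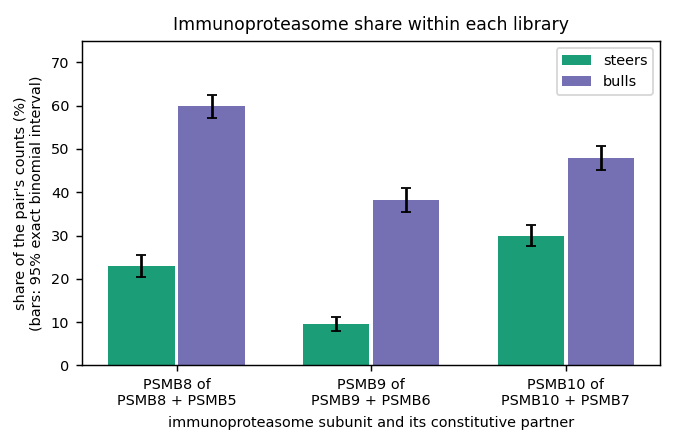
Share of counts on the immunoproteasome subunit within each pair of an immunoproteasome subunit and its standard partner (percent, axis from 0), for the pooled libraries of steers and bulls, with exact 95% binomial intervals as bars. The share is lower in steers for each pair, 22.9% against 59.8% for PSMB8, 9.46% against 38.2% for PSMB9 and 30.0% against 48.0% for PSMB10.

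PSME1 and PSME2 form the cap that opens the proteasome. PSME1 had 733 and 1000 counts and a log2(FC) of -0.57 (-0.71 to -0.43), and PSME2 had 472 and 423 counts and one of 0.04 (-0.16 to 0.23), or -0.20 with total counts, so neither was past 2-fold. Peptides then pass the membrane through a channel of TAP1 and TAP2. TAP1 had 276 counts in steers against 854 in bulls, a log2(FC) of -1.75 (-1.95 to -1.55). Its partner TAP2 had 339 and 595 counts and was at -0.93 (-1.13 to -0.74), short of 2-fold, although with total counts it was past it. In the endoplasmic reticulum, ERAP1 trims peptides to length and had 128 and 412 counts, a log2(FC) of -1.80 (-2.11 to -1.52). ERAP2, its relative, had 133 and 132 counts and was at -0.11 (-0.47 to 0.25). The counts of ERAP1 per count of ERAP2 were 0.962 in steers and 3.12 in bulls. For the pairs of PSMB8 with PSMB10, TAP1 with TAP2 and ERAP1 with ERAP2, the first differed by more than the second, with log2 differences of -1.27, -0.82 and -1.70 whose intervals all lay below 0. These 3 pairs were chosen after their values had been seen.

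None of the 3 chaperones of the loading complex was past 2-fold. TAPBP, or tapasin, which bridges TAP and the heavy chain, had 1843 counts in steers against 1829 in bulls, a log2(FC) of -0.11 (-0.21 to -0.02). PDIA3, its disulfide partner, had 6138 and 4209 counts and was higher in steers at 0.42 (0.37 to 0.48). CALR, the lectin chaperone calreticulin, had 8092 and 3924 counts and was at 0.92 (0.87 to 0.98), the highest of the 33 genes and just under 2-fold. At a threshold of 1.5-fold CALR was past it and higher in steers, as were 12.2% of all genes. CALR and PDIA3 also serve the folding of many other secreted proteins. HSPA5 and SEC61A1, general genes of the endoplasmic reticulum in a list of class I peptide handling, were at 0.88 and 0.77. They were the highest of the 11 genes of that list, in which GANAB and UGGT1 were at 0.07 and 0.25. Without TAPBP, PDIA3 and CALR, the other 13 genes of the class I pathway had a median of -1.75, with the same 8 past 2-fold. Over all genes tested, 10.2% were past 2-fold and lower. CALR and PDIA3 were the highest of the 33 genes, so the lower median follows from leaving them out.

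Class I and class II promoters are bound by the same complex of RFX5, RFXAP and RFXANK, on which NLRC5 switches on class I and CIITA class II. NLRC5 had 96 counts in steers against 324 in bulls, a log2(FC) of -1.87 (-2.22 to -1.54). The log2(FC) values of the coactivators NLRC5 and CIITA, at -1.87 and -2.05, had overlapping intervals. RFX5 had 165 and 238 counts and was at -0.65 (-0.95 to -0.36), RFXANK had 257 and 226 counts and was at 0.06 (-0.20 to 0.33), and RFXAP had 133 and 107 counts and was at 0.19 (-0.19 to 0.57). None of the 3 was past 2-fold, and with total counts RFXANK and RFXAP changed sign, to -0.18 and -0.05. At a threshold of 1.5-fold RFX5 was past it, as were 15.8% of all genes on the lower side and 12.2% on the higher. The share of CIITA in the summed counts of CIITA and RFX5 was 44.4% (38.7 to 50.3) in steers and 67.9% (64.4 to 71.2) in bulls, so the coactivator differed by more than the DNA-binding subunit. Of 7 further factors that act at MHC promoters, NFYA, NFYB, NFYC, CREB1, CREBBP, KAT2B and RFX1, 0 were past 2-fold, and their median was 0.14. In RefSeq, RFXANK overlaps NR2C2AP and RFXAP overlaps LOC101904963, and reads of these overlaps cannot be told apart without strand. The same holds for PSME1 with EMC9, and for PDIA3 with CATSPER2, which had 1 count in each library.

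Costimulation is the second signal that a T cell needs beside the peptide. CD86, a ligand of CD28 on T cells, had 75 counts in steers against 453 in bulls, a log2(FC) of -2.71 (-3.09 to -2.36). CD80, the other ligand of CD28, was scarce, with 18 and 33 counts and a log2(FC) of -0.98 (-1.91 to -0.13), and was not past 2-fold. CD40, through which T cells license antigen-presenting cells, had 27 and 131 counts and was at -2.38 (-3.06 to -1.79). The share of CD86 in the summed counts of CD86 and CD80 was 80.6% (71.1 to 88.1) in steers and 93.2% (90.6 to 95.3) in bulls, a pair chosen after its values had been seen. In a list of 12 other ligands of this kind, 9 had at least 10 counts and 5 of these were past 2-fold and lower in steers, with a median of -1.07. They were CD48 with 28 and 351 counts, CD83 with 17 and 201, ICOSLG with 67 and 130, and the inhibitory ligands CD274, with 2 and 17, and PDCD1LG2, with 1 and 19. CD276, CD58, ICAM1 and TNFSF9 of the same list were not past 2-fold, at -0.14, 0.06, -0.53 and -0.86.

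Other genes of the pathways were lists chosen by function. Of 15 genes of the standard proteasome and its other activators, 0 were past 2-fold in either direction, and their log2(FC) values ran from -0.43 to 0.52 with a median of 0.11. Of 11 genes of class I peptide handling, 0 were past 2-fold and the median was 0.07. TAPBPL, a relative of tapasin, was the lowest of them at -0.88 (-1.08 to -0.68). A list of 9 further genes of endosomal proteolysis, 8 cathepsins and the cathepsin inhibitor CST3, had a median of 0.17, with CST3 at 0.84. CTSC, which activates proteases of cytotoxic granules and neutrophils, was the one past 2-fold, with 1193 and 2922 counts and a log2(FC) of -1.41, while CTSB, CTSD and CTSK were at 0.17, 0.25 and 0.57. Of the interferon gamma axis, which induces both MHC classes, IRF1 had 308 and 690 counts and was at -1.28 (-1.48 to -1.09), and SOCS1 had 14 and 38 counts and was at -1.53. The other 5 genes of this list with at least 10 counts were not past 2-fold, among them the receptor chain IFNGR1 at -0.97. IFNG itself had 0 counts in both libraries, which allows up to 3 counts in each.

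Several of the genes lie close together on chromosome 23 in the cattle MHC, and 12 of the 31 that matched a RefSeq entry are on this chromosome. In the RefSeq order (assembly ARS-UCD2.0, used for order only), a stretch apart from the DQ genes runs from BOLA-DYA to HLA-DOA and holds TAP2, PSMB8, TAP1, PSMB9, HLA-DMB and HLA-DMA. In it, 7 of 8 of the described genes were past 2-fold and lower in steers, with a median of -2.06. BRD2, a general regulator of transcription between HLA-DMA and HLA-DOA, had 3002 and 2932 counts and was at -0.09 (-0.16 to -0.01). Beyond HLA-DOA, RXRB, SLC39A7 and HSD17B8 were at 0.11, 0.41 and 0.00. COL11A2, a collagen gene next to HLA-DOA, had 2 counts in steers against 71 in bulls, a log2(FC) of -4.96 (-8.35 to -3.37). Of 10 neighbours outside the 33 genes with at least 10 counts, 3 were past 2-fold and lower in steers, beside 10.2% of all genes tested. They were COL11A2, GCLC and DSB, the last of which was taken above as a class II chain. LRRC1, KLHL31 and H2B, also not past 2-fold, were at -0.32, -0.86 and -0.86, H2B with 4 and 7 counts. The median of the 10 neighbours was -0.59, compared with 0.01 over all genes tested. Genes on other chromosomes, such as CD74 on chromosome 7 and B2M on chromosome 10, were also past 2-fold and lower. A part of position in these values was not tested.

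**Figure D4:**
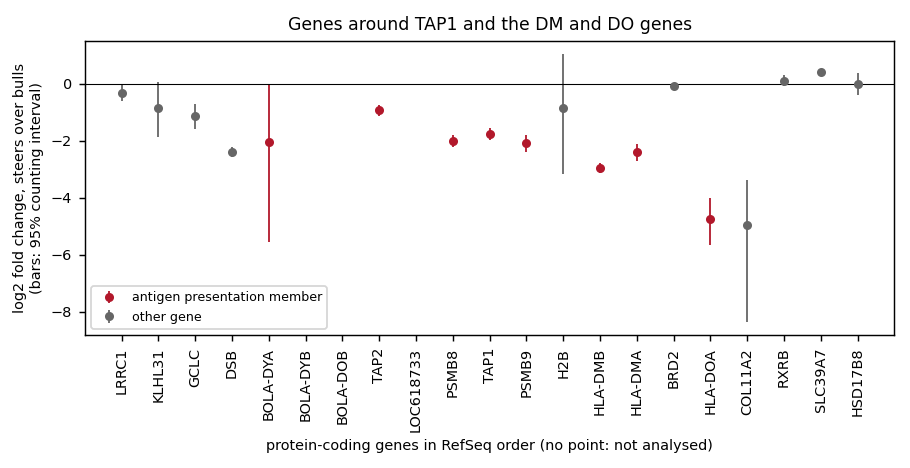
Log2(FC), steers over bulls, with the 95% counting interval as a bar, for protein-coding genes of this MHC stretch in RefSeq order, with the described genes in red and others in grey. HLA-DOA at -4.73 and COL11A2 at -4.96 are the lowest points, and BRD2 between HLA-DMA and HLA-DOA lies at -0.09.

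Markers of leukocytes were lower in steers together with these genes. All 6 general leukocyte markers were past 2-fold and lower, with a median of -2.23 and a summed normalised count of 2482 in steers and 9610 in bulls. Of 10 macrophage markers 8 were past 2-fold and lower, with a median of -1.70 and sums of 19735 and 45254. Of 7 dendritic cell markers 4 were, with a median of -1.23 and sums of 1162 and 2644. CD209 gave most of these sums, with 1008 of 1212 raw counts in steers and 2178 of 2534 in bulls. CLEC9A, BATF3 and ZBTB46 of this list were not past 2-fold, at -1.22, -0.98 and 0.21, CLEC9A with 3 and 7 counts. All 8 T cell markers were lower and past 2-fold, with sums of 97.8 and 846, and CD3G had 0 counts in steers. Of the natural killer cell markers, 3 of the 3 with at least 10 counts were lower, with sums of 48.9 and 593, and KLRD1 and GZMB had 0 counts in steers. B cell markers were scarce, with sums of 24.9 and 101, and MS4A1 and CD79B had 0 counts in both libraries. Markers of the other cells of the tissue did not move with them to this degree. Of 7 endothelial markers 0 were past 2-fold, 1 of 6 adipocyte markers was lower, and 2 of 6 fibroblast markers were higher, with medians of -0.19, -0.20 and 0.74. Of 7 skeletal muscle markers 1 was lower and 1 higher, with sums of 27145 and 42025 and a median of -0.65. The lower one was MYH7, a myosin of slow fibres, at -2.23 with 675 and 2906 counts. Of 3 lymph node stroma markers with at least 10 counts, CXCL13 was past 2-fold and higher in steers, with 55 and 7 counts, while CCL21 was at -0.79 with 353 and 561, and the list's sums were 449 and 634. HBB of the erythroid list was higher in steers, with 21 counts and 1. The part of the leukocyte content in the lower antigen presentation genes was not tested.

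**Figure D5:**
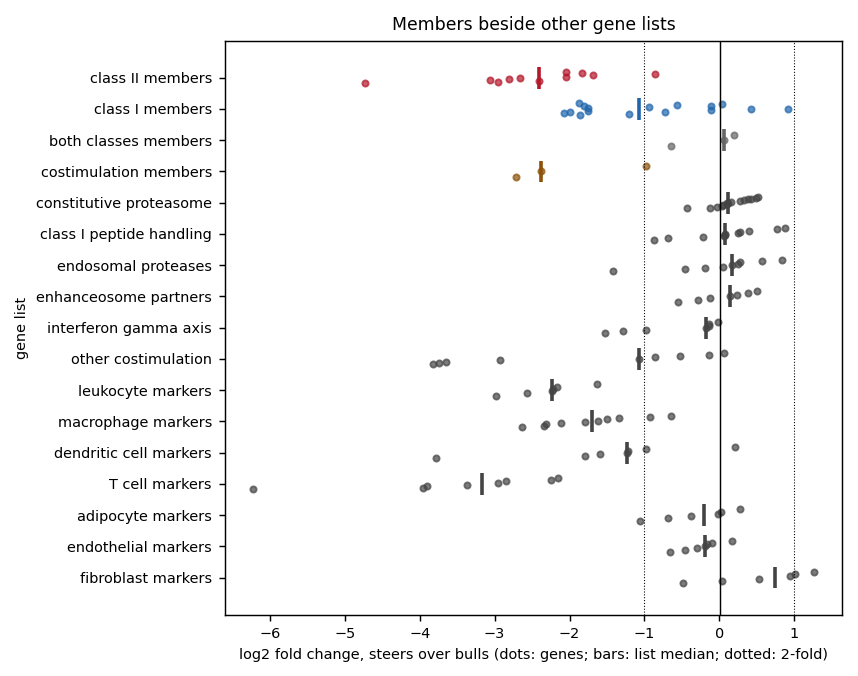
Log2(FC), steers over bulls, of each gene with at least 10 counts in the 4 groups of described genes (coloured) and in other lists (grey), with the list median as a bar. The class II median of -2.41 lies near that of the leukocyte markers at -2.23, and the standard proteasome, at 0.11, and the endothelial markers, at -0.19, lie near 0. The lowest T cell point, CD3G, has 0 counts in steers and its place depends on the 0.5 counts added.

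Ratios within a library set the MHC genes beside these markers without any scaling. The class II chains and CD74 together had 5.52 counts per count of the leukocyte markers in steers and 5.71 in bulls, a log2 difference of -0.05 (-0.12 to 0.02) whose interval holds 0. This near equality rested on CD74, which gave 12658 of the 14298 counts in steers. For the class II chains without CD74, the ratio to the leukocyte markers was 0.633 in steers and 1.21 in bulls, a difference of -0.93 (-1.03 to -0.83). Per count of PTPRC, the general leukocyte surface phosphatase, the class II chains and CD74 had 134 counts in steers but 67.5 in bulls, a difference in the other direction, so no single ratio describes the relation. Relative to the macrophage markers, the class II chains and CD74 were lower in steers, with 0.694 and 1.21 counts per count and a log2 difference of -0.81 (-0.84 to -0.77). CSF1R and CD163, the macrophage markers that were not past 2-fold, gave much of this sum, and without them the difference was -0.34 (-0.39 to -0.30). Class I heavy chains and B2M had 0.501 and 0.691 counts per count of the macrophage markers and 3.99 and 3.25 per count of the leukocyte markers. Without CSF1R and CD163 the former ratio was 1.30 in both libraries, with a log2 difference whose interval ran from -0.05 to 0.05. The class I sum held BOLA-A, BOLA-NC1 and B2M only. It left out the rows BOLA, with 7403 and 40199 counts, and JSP.1, with 6575 and 18134. The class I ratios therefore describe the summed rows and not class I as a whole. The class II sums likewise left out BLA-DQB, LOC100848815 and DSB. The ratios without CD74, without CSF1R and CD163, to PTPRC and of class I were added after the data had been seen.

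The number of genes past 2-fold was little altered by the scaling. With total counts 23 of the 33 were lower, TAP2, IFI30 and CD80 in addition. With TMM factors 20 of the 33 were lower, beside 10.4% of all genes lower and 5.43% higher, and with upper-quartile factors 20 were, beside 10% and 5.84%. Of the genes with at least 100 counts, which BOLA-DYA and CD80 did not reach, 19 of 31 were lower, compared with 6.63% of all genes lower and 3.27% higher. An exact binomial test of the counts against no difference, adjusted by Benjamini-Hochberg over all 17752 genes with a count and joined with the 2-fold threshold, called 19, beside 8.45% and 4.64%. This test compares the libraries and not the conditions. The calls depended more on how much pools of this kind vary. An exact test in edgeR, adjusted and thresholded in the same way, with an assumed biological coefficient of variation of 0.2 between pools called 7 class I genes, 9 class II genes, CD86 and CD40 lower in steers, with 4.29% of all genes called lower and 2.07% higher. With a coefficient of 0.4 it called HLA-DOA alone, with 0.524% and 0.293% of all genes. The spread between pools cannot be estimated from 1 library per group.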

How the data were processed

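Antigen presentation genes were described in 2 mRNA libraries of intramuscular fat, 1 from pooled RNA of steers and 1 of bulls, grouped by the titles and treatments in the labels. The authors trimmed and filtered the Ion Proton reads, used MapSplice to place them on the cattle genome, and deposited raw read counts per gene without normalization. The counting program, its use of strand and its treatment of reads with several matches are not given in the sources used here. The submitters' processing notes also name BWA and the human build GRCh37.p13, which the methods do not name for these data.

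Size factors were medians of ratios over genes with a count in both libraries. Fold changes used a prior of 0.5 counts. Intervals are 95% Clopper-Pearson intervals of the pair's counts, or exact binomial intervals for shares, and the interval of a difference of log2 ratios is a normal approximation. They cover counting error only. A gene past 2-fold had at least 10 counts over both libraries, an absolute log2 fold change over 1 and an interval without 0. No p-value is given, since 1 library per group allows no test of the conditions. The procedure was tested on simulated data. The simulated libraries held counting error only and no variation between pools, so they do not bear on that variation. Totals of 12677375 and 9868415 counts set the depth.

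The alternatives were total counts, TMM and upper-quartile scaling, other minimum counts, 1.5-fold, a prior of 5 counts, an exact binomial test with Benjamini-Hochberg adjustment, and edgeR 4.0.16 (R 4.3.3) with assumed biological coefficients of variation of 0.2 and 0.4. Python 3.11.15, numpy 2.4.6 and scipy 1.17.1 were used. All members present in the table are named. In a list of other pathway genes, those past 2-fold are named where there are 5 or fewer, and further genes beside them were named after their values had been seen. Members and lists were chosen with earlier results of these data known. Of the 33 genes, 31 matched a RefSeq gene of assembly ARS-UCD2.0 by symbol, those with the prefix HLA- after replacing it by BOLA-, and no coordinates are given because the builds differ. Sequences were not analysed here, nor were the small RNA libraries.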

Additional observations from a re-analysis of the deposited data

How the results depend on the processing

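The genes past 2-fold numbered 8 in the class I pathway, 10 in the class II pathway, 0 among the shared regulators and 2 in costimulation. These counts moved by no more than 1.5 times under total counts, TMM, upper-quartile scaling, other minimum counts and the exact binomial test. With edgeR and an assumed biological coefficient of variation of 0.4, they were 0, 1, 0 and 0. At 1.5-fold, 1 shared regulator, RFX5, was past the threshold on the lower side. In the class I pathway 10 genes were then lower and 1, CALR, was higher, beside 15.8% of all genes lower and 12.2% higher. Over all genes, 2307 were past 2-fold, compared with 1036 with at least 100 counts, 1130 and 145 with assumed coefficients of 0.2 and 0.4, and 4069 at 1.5-fold. Scaling by total counts moved the median of the class I pathway from -1.07 to -1.31 and that of the shared regulators from 0.06 to -0.18, through RFXANK, beside a shift of all genes to -0.23. It placed TAP2, IFI30 and CD80 past 2-fold as well. Under total counts 19 of 33 log2(FC) values left their counting interval, and under TMM, upper-quartile scaling and a prior of 5 counts 0 did. The log2 difference of class II chains and CD74 per leukocyte marker was -0.05, and it moved to -0.93 without CD74 and to 0.99 with PTPRC alone as the marker. Per macrophage marker it moved from -0.81 to -1.69 without CD74 and to -0.34 without CSF1R and CD163. BOLA-DYA, with 11 counts in all, was not past 2-fold under the exact binomial test or with assumed coefficients. No paired analysis was possible because each group has 1 mRNA library, and the replicate numbers in the labels belong to the small RNA libraries. Depth limits BOLA-DYA, CD80, HLA-DOA and CD40 most, and the lack of replicate libraries limits all values.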

Other observations

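Presentation of lipids and metabolites was sparse. CD1A had 5 counts in steers against 44 in bulls, CD1E had 1 and 19, and MR1, which shows metabolites to mucosal T cells, had 48 and 98. All 3 were past 2-fold and lower in steers, MR1 with a log2(FC) of -1.14 (-1.68 to -0.64). Coreceptors of T cells that bind MHC molecules were also lower. CD8A, a coreceptor for class I, had 5 and 94 counts and a log2(FC) of -4.22 (-6.01 to -3.08), CD8B had 18 and 142 counts and one of -3.07 (-3.90 to -2.39), and CD4, the coreceptor for class II, had 28 and 105 counts and one of -2.01 (-2.69 to -1.42). LAG3, an inhibitory receptor for class II, had 151 and 215 counts and was not past 2-fold at -0.63 (-0.94 to -0.33).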
